A study of Sus scrofa with 16 samples.

Results

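Across the hearts of 16 pigs, 7590 windows of 500 bp on chromosomes 1 to 18 lay under a methylation peak in every animal of every group, and adjoining windows joined to 3909 regions. The members were chosen by peak values: a window was taken where its base 250 was covered by 4 peaks in each of the 4 deposited lists, 16 peaks in total. They made up 0.155% of 4898750 windows and 1.22% of the 620135 windows with at least 1 peak. The DNA came from the hearts of male pigs, castrated and aged 6 months, and each of the 4 groups had 4 animals. In the highland, Tibetan (TH) and Yorkshire (YH) pigs were raised on the plateau, and in the lowland the same breeds (TL for Tibetan, YL for Yorkshire) were raised near sea level. Both breeds were thus present at both elevations. All sampled animals were born at the site where they were raised, and YH and TL were offspring of herds brought in earlier and bred there. Animals of every group had been given vaccines and treated against worms. Each group was deposited as 1 list of peaks in which no animal is named. Since at most 4 peaks of a list cover base 250 of any window on these chromosomes, the 4 peaks at a member were read as 1 per animal.

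DNA methylation marks CpG sites and is copied to the new strand after DNA replication. In methylated DNA immunoprecipitation sequencing (MeDIP-seq), sonicated DNA is captured with an antibody against 5-methylcytosine and sequenced, and a peak marks a stretch with more reads than its surroundings. The number of reads in a peak (tags) grows with its length and the sequencing depth, fold enrichment is the ratio of the peak's signal to the local background, and the summit is the position of the highest pile-up. In whole heart tissue, which mixes muscle cells, fibroblasts, endothelial and blood cells, a change in the share of methylated cells and a change in the number of captured CpGs cannot be told apart.

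The number of windows fell steadily with the number of peaks over them, from 204966 windows with 1 peak to 9154 with 15 and 7590 with 16. The TH list limited the set most. Of the windows with 15 peaks, 5378 (58.8%) lacked a TH peak, 1856 (20.3%) a TL peak, 1035 (11.3%) a YL peak and 885 (9.67%) a YH peak. Taken by itself, TH had 4 peaks at 20292 windows, TL at 29879, YH at 45306 and YL at 49464, and the members were 37.4%, 25.4%, 16.8% and 15.3% of these. Without the requirement on TH the set would have held 14228 windows, against 10232 without TL, 8777 without YL and 8700 without YH. Complete absence from a single list was rare: of the windows with 4 peaks in the other 3 lists, 15 had no TH peak, 23 no TL peak, 6 no YH peak and 3 no YL peak. Just outside the rule, windows with 15 peaks had a median fold enrichment of 7.2 and 52 tags, against 7.61 and 60 tags for windows with 16.

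**Figure D1:**
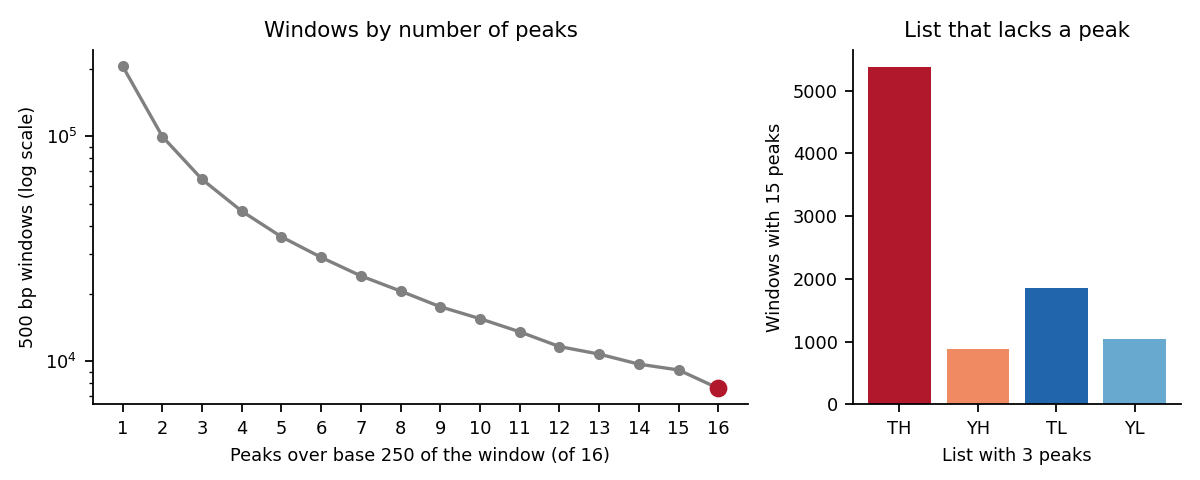
The left panel plots the number of 500 bp windows (log axis) against the number of peaks over base 250, with the 7590 windows under 16 peaks in red. The bars on the right count the windows with 15 peaks by the list that holds 3 of them, with TH at 5378 and the other lists between 885 and 1856.

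The regions were spread over all 18 autosomes at 1.60 regions per Mb, but unevenly. Chromosome 6 held the most (384) and was the densest, at 2.43 per Mb, followed by chromosome 12 (2.39), chromosome 10 (2.38) and chromosome 18 (2.34). The sparsest were chromosomes 13 (1.04), 15 (1.11) and 1 (1.15). As a share of the windows with a peak, members differed less, with 1.22% over all autosomes. This share was 1.59%, 1.37%, 1.32% and 1.26% on chromosomes 6, 12, 10 and 18. On chromosomes 13, 15 and 1 it was 0.955%, 1.11% and 1.10%. The highest share was on chromosome 11 (1.64%) and the lowest on chromosome 14 (0.894%). Shorter chromosomes were denser over the 18 points, with a Spearman rho of -0.61 and a Pearson r of -0.66 between density and length, given as a description of chromosomes that differ in base composition and gene content. Toward the chromosome ends the windows became more frequent. The outer 10% at each end held 3096 windows, or 40.8% (Wilson 95% interval 39.7% to 41.9%, counting error only), whereas these ends held 28.9% of all windows with a peak and 20% of all windows. Density was 6.32 windows per Mb in the ends and 2.29 in the middle, a ratio of 2.76, against a ratio of 1.63 for windows with any peak. The ends were denser on 18 of 18 chromosomes for the members and on 17 for windows with any peak. With each chromosome cut into 10 parts of equal length, the last part held 7.03 windows per Mb and the first 5.61, while the parts between held 1.68 to 3.01.

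**Figure D2:**
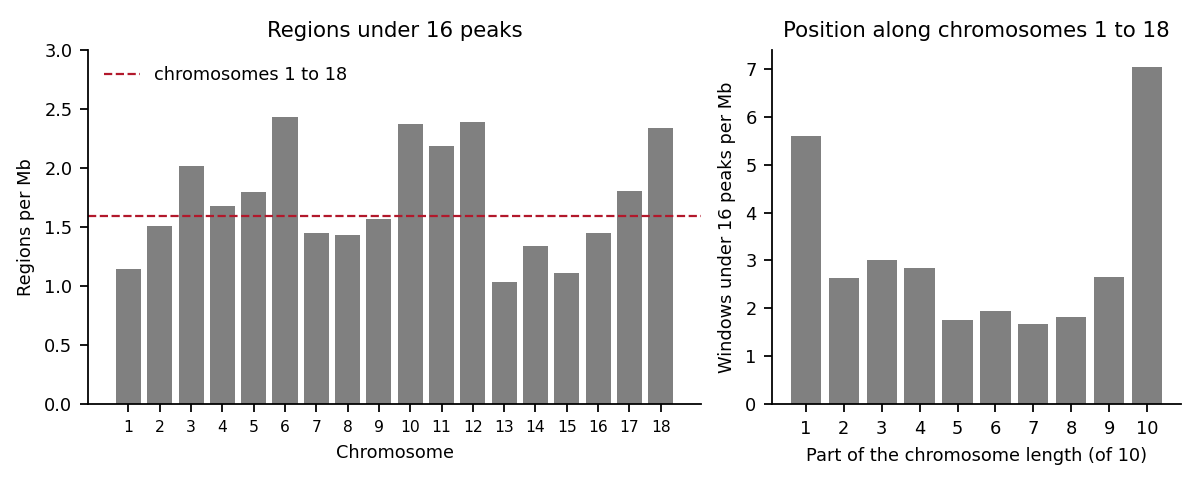
Bars on the left give the regions under 16 peaks per Mb for each chromosome, with the dashed line at 1.60 for chromosomes 1 to 18. Bars on the right give windows per Mb in each of 10 equal parts of the chromosome length, which are highest in the first (5.61) and last (7.03) part.

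Most regions stood alone. Of 24503 bins of 100 kb, 3329 (13.6%) held a region, and the median distance to the nearest other region was 132.5 kb. Only 92 regions (2.35%) had a neighbour within 5 kb, while 212 were more than 1 Mb from any other and the widest gap was 20.7 Mb. The fullest bins, with 5 regions each, were chr6:800001-900000, chr6:143300001-143400000, chr6:143400001-143500000 and chr8:146700001-146800000 (Sscrofa10.2, as in all positions given here). In 19 cases regions 500 bp apart were bridged by single peaks, with a median of 14 of the 16 peaks covering both regions and at most 15.

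Regions were short. A single window made up 1455 (37.2%), 1660 (42.5%) were 1000 bp, 526 (13.5%) were 1500 bp and 268 were 2000 bp or longer. The core that lay under all 16 middle-window peaks had a median of 843 bp (quartiles 656 and 1135). As a share of each region's span from the first start to the last end of these peaks, it had a median of 41.7%. The core start was most often set by a TL peak (36.1%), then by TH (29.5%), YL (20.01%) and YH (15.2%), and the core end showed the same order, with 38.0%, 27.5%, 19.9% and 15.6%. The TL peaks were also the shortest at these regions, with a median of 1326 bp, against 1397, 1452 and 1455.5 bp in TH, YH and YL.

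Peaks over the members were longer and held more tags than the lists as a whole, and differed less in fold enrichment. The median number of tags was 44 in both TH and TL, 52 in YH and 54 in YL, against 27, 25, 29 and 30 over all autosomal peaks of the lists. Their median length was 1326 to 1455.5 bp, against 941 to 1040 bp over all autosomal peaks. For TH, YH, TL and YL, the median fold enrichment of the members was 9.1, 8.08, 8.43 and 8.61, against 8.28, 7.29, 7.88 and 7.49 over all peaks. In each list the members' median stood between the 58.3rd and the 66.4th percentile for fold enrichment and between the 74.5th and the 78.8th for tags. The members were chosen by these same peaks, so the differences are a description with no test. The list with the highest fold enrichment (TH) was not the list with the most tags (YL).

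**Figure D3:**
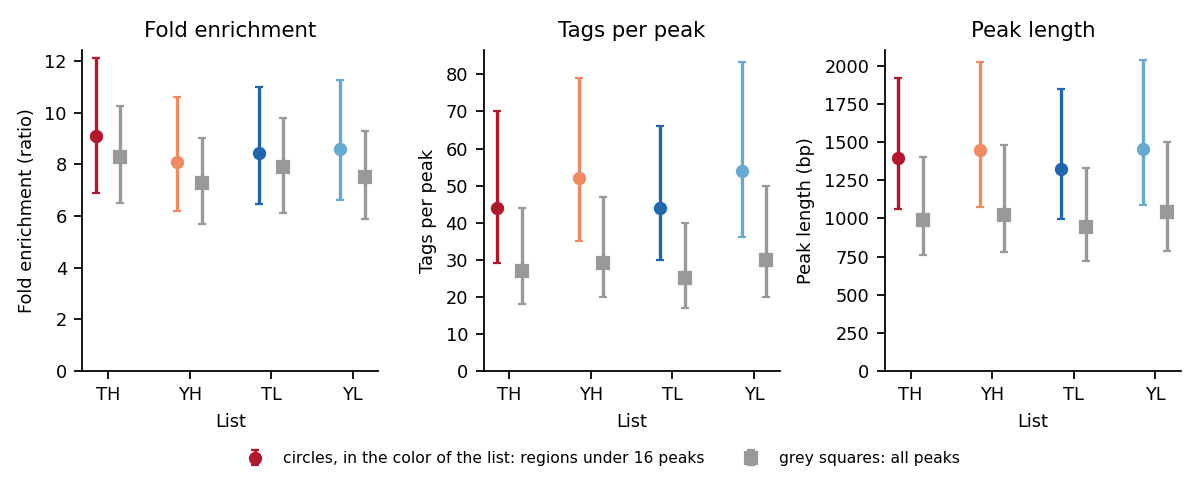
Points give the median and bars the quartiles of fold enrichment (ratio), tags per peak and peak length (bp) in each list, with circles for the peaks over the regions and grey squares for all peaks of chromosomes 1 to 18. The regions' median tags are 44 to 54, against 25 to 30 over all peaks.

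Within a region, the 4 peaks of a list differed most in TH, as they did outside the members. The SD of log2 fold enrichment had a median over regions of 0.30 in TH, against 0.23 in YH and in TL and 0.21 in YL (n = 4 peaks each). At the other windows with 4 peaks of a list, the median SD was 0.28 in TH, 0.22 in both YH and YL and 0.23 in TL. The highest of the 4 tag numbers was 2.38 times the lowest in TH (median), 1.94 times in YL, 1.65 times in TL and 1.49 times in YH. Put in ascending order at each region, the 4 TH tag numbers had medians of 27, 40, 54 and 66, and the 4 YH tag numbers had medians of 42, 49, 56 and 64. TL gave 33, 41, 48 and 57 and YL gave 37, 52, 62 and 73. The second lowest tag number was a median of 1.4 times the lowest in TH and 1.38 times in YL, against 1.18 times in TL and 1.14 times in YH.

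Up to 3000 bp, longer regions were less enriched. Median fold enrichment was 10.7 in regions of 500 bp, 8.29 at 1000 bp, 6.25 at 1500 bp, 5.69 at 2000 bp, 5.18 at 2500 bp and 4.82 at 3000 bp, while median tags increased from 33.5 to 52, 81.5, 109, 149.5 and 179. Beyond that the order was lost, with 4.89 in the 8 regions of 3500 bp, 4.2 in 1 of 4000 bp, 4.87 in 2 of 4500 bp and 7.54 in 2 of 5000 bp. Over the 3909 regions the Spearman rho between median fold enrichment and median tags was -0.69 (Pearson r = -0.23). Both come from the same peaks and share their length, so the value is a description only.

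The most enriched region was chr17:35644501-35645000. Its fold enrichment in ascending order was 30.59, 33.75, 34.01 and 38 in TH and 33.09, 35.32, 35.51 and 37.01 in YH. The TL peaks had 34.74, 38.87, 41.01 and 41.4 and the YL peaks 25.58, 30.87, 35.16 and 35.51. The fold enrichments of all 4 lists overlapped, and the 16 summits lay within 46 bp. Next came chr3:44470501-44471000, with values from 26.63 to 37.76 and 60 to 81 tags in all 16 peaks. Its summits spanned 15 bp. The other 3 of the 5 most enriched regions were chr17:69458501-69459000, chr6:106053001-106053500 and chr16:54726501-54727000, each 500 bp long with a median fold enrichment between 27.375 and 27.535. At the other extreme, chr4:140334501-140338000 had a median of 3.59 over 3500 bp. Its values ran from 3.58 to 4.96 in TH, 3.12 to 3.6 in YH and 3.38 to 4.04 in TL, and the YL peaks had 2.85 to 4.3. Its 16 summits were spread over 3698 bp in 5 clusters.

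The longest regions differed strongly in tags. chr3:22239501-22244500 and chr17:69673501-69678500 each covered 5000 bp. In the first, TH peaks held 602, 782, 937 and 1023 tags, YH peaks 1959, 2299, 2464 and 3375, TL peaks 1244, 1642, 1742 and 2220 and YL peaks 1367, 1591, 1602 and 1746. TH was below the other 3 lists without overlap, and YH was above TH by the widest margin. Fold enrichment was 5.34 to 7.94 in TH and 4.92 to 6.23 in YH, which overlapped (log2 difference 0.30 ± 0.19, adjusted p = 0.464 by limma). At chr17:69673501-69678500, the 16 peaks held between 630 and 1130 tags and the lists overlapped. The largest median number of tags of any region was 2303.5, at chr16:36781001-36785500, with a lowest peak of 1823 tags and a fold enrichment of only 4.16 to 5.76. The remaining 2 of the 5 longest were chr6:42241501-42246000 and chr8:30419001-30423000, with medians of 349.5 and 255.5 tags.

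Summits of the same list were about as far apart as summits of different lists. The 16 summits of the middle window ranged over a median of 442 bp (quartiles 198 and 861), and over 258 bp after the lowest and the highest were left out. All 16 lay within 100 bp in 242 regions (6.19%), within 250 bp in 1265 (32.4%) and within 500 bp in 2132 (54.5%). The medians of the 4 lists lay closer together, within 100 bp in 2032 regions (52.0%), with a median distance of 93 bp between the outermost. Pairs of summits from the same list were a median of 64 bp apart and pairs from different lists 66 bp. The closest lists were YH and YL, at 60 bp, and the farthest were TH and TL, at 70 bp, while distances within a list ran from 58 bp in YL to 69 bp in TL. The distance between lists was below that within lists in 1956 regions, above it in 1877 and equal in 76.

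Where summits were far apart, they formed clusters. With a gap of more than 250 bp taken to separate clusters, 2304 regions (58.9%) had 1 cluster, 1149 (29.4%) had 2, 356 (9.11%) had 3 and 100 had 4 or more. Regions with a single cluster had shorter peaks (median 1172 bp) and a median fold enrichment of 10.035, against 1750.5 bp and 7.395 with 2 clusters. In 2-cluster regions the larger cluster held a median of 14 of the 16 summits. Over all windows, the distance between summits grew slightly with the number of peaks, from a median of 60 bp at windows with 2 peaks to 77 bp at windows with 16.

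**Figure D4:**
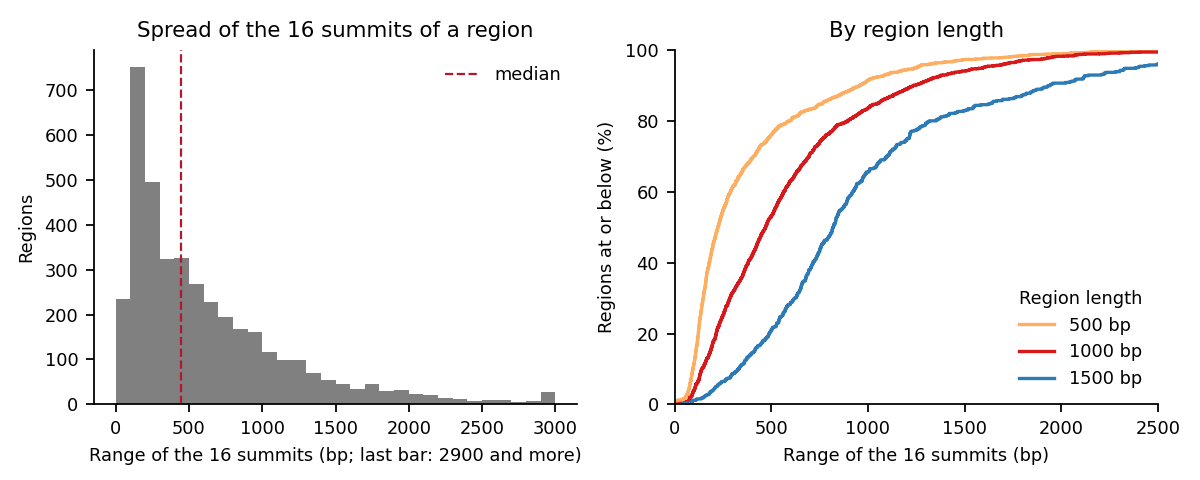
The histogram gives the range of the 16 summits in bp for the 3909 regions, with the median of 442 bp dashed. The curves give the percentage of regions at or below a range for regions of 500, 1000 and 1500 bp, whose medians are 223, 471 and 821.5 bp.

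The tightest summits were at chr9:40853001-40856000, where all 16 fell within 3 bp although the region covered 3000 bp and its peaks were 2692 to 3067 bp long. All 4 TH summits were at position 40853877, and the others were between 40853876 and 40853879. Fold enrichment ranged from 6.93 to 9.87 in TH and 6.47 to 7.61 in YH, and the TL and YL peaks had 8.38 to 9.33 and 6.92 to 9.45. At chr3:142497501-142498000 and chr6:143421501-143422000 the range was 7 bp, at chr6:143454001-143454500 it was 6 bp and at chr16:6776501-6777000 it was 5 bp. Both chromosome 6 sites lie in a bin with 5 regions. The widest range, 4963 bp, was at chr3:3260501-3263000, where 6 clusters were found and 7 of the 16 summits lay in the largest. A wide range could also rest on a single peak. At chr6:864501-865500, 15 of the 16 summits lay between 865041 and 865126, and the exception was a YH summit at 869543; the longest YH peak there was 6093 bp, whereas the other 15 peaks were 1104 to 1574 bp. The other wide regions, chr3:134781001-134783000, chr6:151977501-151979500 and chr5:4081501-4083000, had 3 or 4 clusters.

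To ask whether regions methylated in every animal still differed in degree between groups, the 4 and 4 fold enrichments were compared on the log2 scale with limma at every autosomal window with 4 peaks in both lists, and p-values were adjusted by Benjamini-Hochberg over all these windows. The rule required peaks and not a given enrichment, yet windows where a group lost a peak are not in the set. Between breeds in the highland (TH vs. YH), none of the 12709 windows and none of the 7590 members was called (0% of windows, lowest adjusted p = 0.121 by limma). Unadjusted p-values under 0.05 with higher values in TH were found at 886 members (11.7%), against 12.8% of all windows, and with higher values in YH at 24 (0.316%), against 0.338%. The exact permutation test gave 471 members (6.21%, against 6.48% of all windows) at its smallest possible p of 0.0286 and no call. That p can pass the adjustment only where most windows reach it, so the absence of calls by this test decides nothing. The median log2 difference of the members was 0.18, the same as over all windows (0.18), and 80.8% of members were above 0, against 81.3% of all windows. Without the TH peak listed first, limma called 28 windows (0.22%), of which 13 were members (0.171%), all higher in TH, and without the peak of any other place in the lists 0 or 1 member.

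Between breeds in the lowland (TL vs. YL), 3 of 18234 windows were called (0.0165%), and all 3 were members, in 2 regions. Unadjusted p-values under 0.05 with higher values in TL were found at 209 members (2.75%, against 3.25% of all windows) and with higher values in YL at 353 (4.65%, against 5.14%). The exact permutation test, which can call only where most windows reach its smallest p of 0.0286, called none. At that p were 324 members (4.27%, against 4.15% of all windows). The median log2 difference was -0.03 in the members and -0.02 over all windows. Between elevations in Tibetan pigs (TH vs. TL), 0 of 10915 windows were called (0%, lowest adjusted p = 0.115 by limma). Higher values in TH at an unadjusted p under 0.05 were found at 437 members (5.76%, against 5.83%) and higher values in TL at 38 (0.501%, against 0.568%), with 282 members (3.72%, against 3.46%) at the smallest exact permutation p. Between elevations in Yorkshire pigs (YH vs. YL), 0 of 26289 windows were called (0%, lowest adjusted p = 0.595 by limma). Higher values in YH were found at 43 members (0.567%, against 0.708%) and higher values in YL at 477 (6.28%, against 6.97%), with 298 members (3.93%, against 4.04%) at the smallest exact permutation p. In all 4 comparisons the members' shares were close to the shares of all windows. The 7590 members are themselves part of the 12709, 18234, 10915 and 26289 windows, so this closeness is partly built in. At the windows outside the set, the median log2 difference was 0.19, -0.02, 0.12 and -0.09 in the same order. In the members it was 0.18, -0.03, 0.11 and -0.09. Differences of more than 2-fold were found at 1 member window each in TH vs. YH and TL vs. YL and at none in the other comparisons, and the median SE of a log2 difference was 0.17 to 0.20. The comparisons share groups and are not independent of each other.

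The direction of these small differences turned with the scale. On the scale of tags per kb of peak and per 1000000 reads, the median log2 difference of the members was -0.11 in TH vs. YH (25.1% of members above 0, against 25.6% of all windows), 0.10 in TL vs. YL (72.3%, against 73.7%), -0.18 in TH vs. TL (14.4%, against 14.3%) and 0.03 in YH vs. YL (58.5%, against 59.9%), each with the opposite sign to that of fold enrichment. Unadjusted p-values under 0.05 by limma on this scale had higher values in TH at 17 members (0.224%, against 0.197% of all windows) and in YH at 100 (1.32%, against 0.999%). For TL vs. YL they had higher values in TL at 433 (5.70%, against 5.54%) and in YL at 39 (0.514%, against 0.422%). For TH vs. TL the numbers were 5 members higher in TH (0.0659%, against 0.101%) and 147 higher in TL (1.94%, against 1.81%), and for YH vs. YL 117 higher in YH (1.54%, against 1.45%) and 52 higher in YL (0.685%, against 0.669%). With fold enrichment kept and the medians of the groups set equal, which by itself centres the differences near 0, the split was 168 members higher in TH (2.21%, against 2.71%) and 169 higher in YH (2.23%, against 2.34%), and 274 higher in TL (3.61%, against 4.16%) and 262 higher in YL (3.45%, against 3.99%). Between elevations, it was 121 higher in TH (1.59%, against 1.55%) and 155 higher in TL (2.04%, against 2.09%), and 153 members each higher in YH (2.02%, against 2.47%) and in YL (2.02%, against 2.05%).

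The first called region was chr6:173501-174500. In ascending order, fold enrichment was 9.56, 9.81, 10.48 and 10.74 in TL and 4.39, 4.9, 5.92 and 6.03 in YL. It was 7.95, 9.88, 10.67 and 12.62 in TH and 4.65, 5.35, 6.54 and 7.2 in YH. Tibetan peaks over this region were above Yorkshire peaks over it at both elevations without overlap. The log2 difference was 0.95 ± 0.16 (SE, adjusted p = 0.0242 by limma) for TL vs. YL and 0.79 ± 0.20 (adjusted p = 0.130 by limma) for TH vs. YH. Summit and length changed with it. The 4 TL summits were at 175306 to 175318 and the 4 YL summits at 173709 to 173806. In TH, 3 summits were at 175318 to 175321 and 1 at 173732, and in YH 3 were at 173543 to 173764 and 1 at 175316. TL peaks were 2479 to 2993 bp long and YL peaks 1190 to 1649 bp. The position of the TL summits lies in a neighbouring region of the set, chr6:175001-175500, which all 4 TL and all 4 TH peaks, 1 YH peak and no YL peak covered together with the first. YL had 4 separate peaks over that neighbour, with fold enrichments of 8.59 to 10.01, which overlapped TL, and 75 to 174 tags. The YH peaks over the neighbour had 6.95 to 8.03, which overlapped TH (7.95 to 12.62). There the same TL peaks were compared with the separate YL peaks, and the log2 difference in fold enrichment was 0.11 ± 0.15 (adjusted p = 0.883 by limma). On the scale of tags per kb and per 1000000 reads, the neighbour was called as well (1.01 ± 0.21, adjusted p = 0.00166 by limma). It was the only one of the 19 bridged neighbours with 4 bridging peaks in some list and 0 in another.

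The second called region was chr15:155340501-155341000. Fold enrichment was 10.47, 13.16, 15.77 and 22.16 in TL and 27.42, 29.22, 32.55 and 35.46 in YL, a log2 difference of -1.07 ± 0.19 (adjusted p = 0.0325 by limma). TL and YL did not overlap. TH had 15.52, 21.78, 23.4 and 27.63 and YH had 24.8, 28.49, 28.76 and 29.99, which overlapped (log2 difference -0.37 ± 0.20, adjusted p = 0.409 by limma). The TL peaks held 13 to 26 tags and the YL peaks 33 to 68, so that fewer reads lay behind the TL values, and with a minimum of 20 tags the window could not be tested. The 16 summits lay within 164 bp, in 1 cluster. Leaving out 1 of the 8 peaks in turn gave adjusted p-values from 0.00286 to 0.201 by limma here and from 0.0339 to 0.171 at chr6:173501-174500, with the same sign each time. The number of called members of TL vs. YL then ranged from 0 to 6, and was 0 when any of 3 of the 4 TL peaks or of 2 of the 4 YL peaks was left out. Over all windows, 6 (0.0329%), all members, were called without the TL peak listed last and 4 (0.0219%), none of them a member, without the one listed first. Without either of the YL peaks listed after the first pair, 2 windows (0.011%) were called, both members, and without each of the other 4 peaks none was called.

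**Figure D5:**
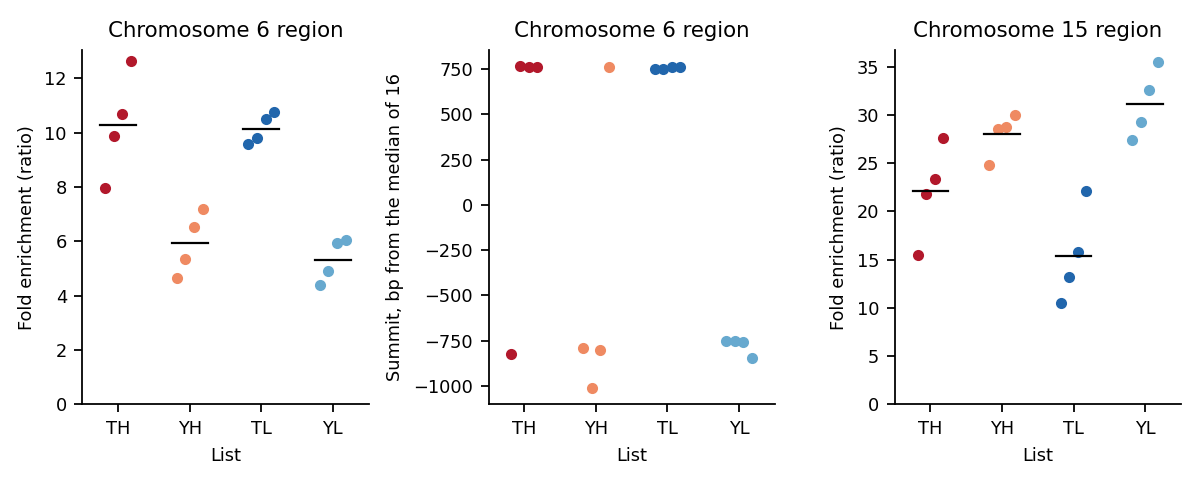
Points are the 4 peaks of each list and lines their means, for fold enrichment (ratio) at chr6:173501-174500 (left) and chr15:155340501-155341000 (right). The middle panel gives the summits at the chromosome 6 region in bp from the median of all 16, where TL lies about 750 bp above and YL about 750 bp below.

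On the scale of tags per kb of peak and per 1000000 reads, other members were called. In TH vs. YH, 18 of all windows (0.142%) were called, of which 17 were members (0.224% of the members), in 3 regions and all lower in TH. Besides chr3:22239501-22244500 (log2 difference -1.51 ± 0.29, adjusted p = 0.000366 by limma), these were chr15:43390001-43391000 and chr15:155536001-155538500. At chr15:155536001-155538500 the tags were 154, 184, 215 and 301 in TH and 550, 584, 635 and 635 in YH. The TL peaks held 183, 264, 264 and 408 tags and the YL peaks 417, 569, 599 and 604. Per kb and per 1000000 reads, these were 3.05 to 4.19 in TH and 7.87 to 9.41 in YH, which did not overlap (-1.22 ± 0.29, adjusted p = 0.0236 by limma), and 4.14 to 6.35 in TL and 5.50 to 8.50 in YL, which overlapped and were not called. Fold enrichment overlapped, at 5.9 to 9.13 in TH and 7.42 to 8.76 in YH. At chr15:43390001-43391000 the tags were 29, 61, 76 and 90 in TH and 175, 183, 203 and 209 in YH. Fold enrichment there had the opposite sign and overlapped, at 10.45 to 15.32 in TH and 10.46 to 12.54 in YH (0.26 ± 0.19, adjusted p = 0.525 by limma). In TL vs. YL, 45 of all windows (0.247%) were called, of which 34 were members (0.448%). They lay in 16 regions, 15 of them higher in TL, and chr6:173501-174500 was among them (1.28 ± 0.21), while chr15:155340501-155341000 was not (-0.67). The lowest adjusted p was at chr12:53588501-53589500 (1.57 ± 0.21, adjusted p = 1.65e-10 by limma), where YL held 19, 23, 245 and 286 tags and TL 198, 230, 235 and 282. There the YL peaks fell apart into a low and a high pair, and the high pair overlapped TL. In YH the tags were 36, 60, 222 and 463. In YH vs. YL 7 of all windows (0.0266%) were called, of which 2 were members (0.0264%), both higher in YH. They were chr10:22274501-22275000 (1.19 ± 0.20, adjusted p = 4.96e-05 by limma) and the most enriched region, chr17:35644501-35645000 (0.94 ± 0.20, adjusted p = 0.0118 by limma), where YH held 100, 117, 144 and 169 tags and YL 41, 60, 78 and 183. In TH vs. TL none of the windows was called (0%). On this scale the fit gave every window of a comparison the same SE, so a window whose 4 peaks were as uneven as in YL at chr12:53588501-53589500 was judged by the common spread. These regions were named after their values were seen.

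The positions of summits were compared in the same windows. The 4 summits of TH and the 4 of YH did not overlap at 302 members (3.98%, against 4.18% of all windows). For TL vs. YL this was the case at 297 members (3.91%, against 4.12%), for TH vs. TL at 235 (3.10%, against 3.45%) and for YH vs. YL at 201 (2.65%, against 2.74%). The median distance between the 2 list medians was 43.5 to 50 bp in the members and 43.5 to 51 bp over all windows.

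No gene annotation of Sscrofa10.2 was used, and no window listed with a gene symbol in the study's table of differential windows lay in a region. By a rule added after the values were seen, a region was given to a gene where it lay between 2 windows listed inside that gene. This placed 11 regions in 7 genes. Of these, 10 lay between windows listed in introns, and the region of AKAP2, an anchoring protein for protein kinase A, lay between a coding and a 3'-UTR window. Whether a region itself is exonic or intronic was not determined. At chr1:153565001-153565500 in IGF1R, the receptor of insulin-like growth factor 1, the TH peaks had fold enrichments of 10.12, 11.8, 13.99 and 21.06 and the YH peaks of 11.62, 12.97, 13.56 and 14.57. The TL peaks had 12.85, 14.33, 14.35 and 15.3 and the YL peaks 10.96, 13.44, 14.32 and 15.01, and all lists overlapped. PRKG1, the cGMP-dependent protein kinase of smooth muscle and heart, held chr14:106792501-106793000 with a median of 12.305 and only 15 to 34 tags per peak. The macrophage mannose receptor MRC1 held chr10:48861001-48861500 (median 10.125).

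PARK2, which encodes the ubiquitin ligase parkin, held 4 regions within chr1:7458001-8016500, with medians of 6.435, 6.45, 5.085 and 6.185 in order of position. Its regions were 1000 to 1500 bp long and the range of their summits was 761 to 1407 bp. SMYD3, a lysine methyltransferase, held chr10:21386001-21386500 and chr10:21469501-21470000, with medians of 14.06 and 18.13 and summit ranges of 203 and 103 bp. At the first of these, fold enrichment was 13.45, 14.52, 16.6 and 18.9 in TH and 9.49, 9.65, 11.26 and 12.75 in YH, which did not overlap (0.56 ± 0.19, adjusted p = 0.229 by limma), while TL (13.62 to 18.46) and YL (8.22 to 16.85) overlapped. SPATA17 held chr10:9966001-9967500 (median 6.73). At none of the 11 regions did limma call any of the 4 comparisons, and unadjusted p-values under 0.05 were found at 3, the first SMYD3 region and chr1:7769001-7770500 in PARK2 for TH vs. YH and the second SMYD3 region for TH vs. TL. In TH vs. YH, such p-values with higher values in TH were found at 886 of the 7590 member windows (11.7%, against 12.8% of all windows). With higher values in YH they were found at 24 (0.316%, against 0.338%). In TH vs. TL, 437 members (5.76%, against 5.83%) had them with higher values in TH. With higher values in TL, 38 members had them (0.501%, against 0.568%).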

How the data were processed

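MeDIP-seq libraries of heart DNA of 16 boars (4 each of TH, YH, TL and YL) were analysed from the deposited peak lists. The authors trimmed reads with FASTX (0.0.13), mapped them to Sscrofa10.2 (Ensembl release 69) with Bowtie (0.12.8) and called peaks with MACS (1.4). Tags are deposited as a count per peak without normalization, and fold enrichment is deposited as a ratio from the peak caller. Length and summit are in bp. Where tags were scaled, they were divided by the group's mean of uniquely mapped reads, which summed to 56036694 (TL), 61486984 (TH), 64595515 (YH) and 68284123 (YL) over the 4 animals.

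Peak ends were taken from the joint start and end field. Peaks over base 250 of each 500 bp window were counted, and windows with 4 peaks in each list were joined where adjoining. The values of a region are those of the 16 peaks over its middle window, so that regions bridged by a peak share it. The members, the lists and the tests were chosen with earlier results of these data known. The 5 longest regions, the 5 at each extreme of median fold enrichment and of summit range, and up to 5 called regions per comparison are named. Log2 fold enrichment was compared with limma (3.58.1, R 4.3.3) over all windows with 4 and 4 peaks, without covariates, at an adjusted p of 0.05. Scripts were tested on simulated data. The p-values measure the spread between the 4 peaks of a list, read as 4 animals. Neighbouring windows often rest on identical peaks, so their tests are not independent. Intervals cover counting error only. Chromosome lengths are the largest peak ends. Genes were placed by the study's listed windows and RefSeq gene lengths; 1 gene was left out because the listed windows spanned more than its length. Alternatives were other bases of the window, stricter peaks, chromosome X, other joining, other summit measures, narrower ends, tags in place of fold enrichment, equal group medians, a minimum of 20 tags, distinct sets of peaks, another variance prior, the exact permutation test and each peak left out. No sequence of Sscrofa10.2 was used. Calculations used Python, NumPy, pandas, SciPy and Matplotlib.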

Additional observations from a re-analysis of the deposited data

Results flagged for a closer look

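Among the fold enrichments of the 38 named regions, 152 groups of 4 peaks were examined, and in 9 the highest or lowest peak stood apart from the other 3 by Dixon's test at the 95% level. Chance flags about 1 in 20 groups, and the regions were partly named for extreme values. At gene regions these were the highest YL peak (15.54) at chr10:48861001-48861500 in MRC1, the lowest TL peak (5.42) at chr1:7458001-7459000 and the highest TH peak (10.92) at chr1:7561501-7562500, both in PARK2. Among the most and least enriched regions they were the highest YH peak (30.95) at chr6:106053001-106053500 and the lowest YH peak (3.12) at chr4:140334501-140338000. Among the longest regions they were the highest YL peak (4.94) at chr16:36781001-36785500 and the highest TL peak (9.47) at chr17:69673501-69678500. The last were the lowest TL peak (9.71) at chr16:6776501-6777000, whose summits span 5 bp, and the highest YL peak (4.9) at chr3:134781001-134783000. Neither called region was among them.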

How the results depend on the processing

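The set of 7590 windows and 3909 regions became 7569 windows and 3899 regions at a base nearer the start of the window, 7592 and 3902 at a base nearer its end, and 7648 and 3939 with chromosome X. It shrank to 3748 windows in 2499 regions (median length 500 bp) where the first and last base of a window were both required, and to 255 windows in 186 regions (median 500 bp) with a fold enrichment of at least 10. The other ways of filtering or joining gave 2669 to 4091 regions. The range of summits of 442 bp was 93 bp between list medians and 258 bp without the outermost summits, and the outer 5% at each end held 27.4% of the windows. Called members were 0 in TH vs. YH, 3 in TL vs. YL, 0 in TH vs. TL and 0 in YH vs. YL, and 17, 34, 0 and 2 with tags per kb and per 1000000 reads (18, 45, 0 and 7 over all windows). The exact permutation test called 0 in every comparison, and its smallest p can pass the adjustment only where most windows reach it. The medians set equal, the minimum of 20 tags, distinct sets of peaks and another prior kept these counts within 1.5 times. Leaving out 1 peak gave 0 to 13 in TH vs. YH, 0 to 6 in TL vs. YL, and 0 in the other comparisons, where the 13 (28 over all windows) came from leaving out the TH peak listed first. For the counts that moved, the cause was not tested. No paired analysis was possible because the peaks carry no animal number. The lowest of a region's 16 peaks held a median of 25 tags, and the part of depth in which windows were members was not tested.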
